A study of Homo sapiens with 16 samples.

Results

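TES, which encodes the LIM-domain protein testin, and 8 genes for other adaptor proteins of the focal adhesion were followed in HMC3 cells, a human cell line labelled microglial, that were wild type or labelled knockout for METTL3. METTL3 encodes the catalytic subunit of the enzyme complex that writes N6-methyladenosine on RNA. The 9 genes, chosen by symbol, were TES, ZYX, VCL, TLN1, PXN, LPP, TGFB1I1, VASP and ENAH, and each matched 1 row among 60669 genes in both deposited tables. The 9 were chosen with measured values known, among them the place of TES at the low end of the poly(A) log2 fold changes, so the poly(A) value of TES is a description here. The labels list 16 libraries made from 100 ng of RNA: 5 wild-type and 5 knockout-labelled poly(A) libraries made with Smart-seq2, and 3 and 3 libraries from RNA cleared of ribosomal RNA, prepared with a kit that keeps strand. No treatment, time point, clone or guide is named in the labels, so whether the knockout-labelled cells are 1 clone is not given in the sources used here, and the replicates are not said to come from separate cultures. P-values then measure the spread between these libraries, which may be technical.

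Focal adhesions are plaques where integrins in the cell membrane are coupled to actin filaments. Talin binds integrin tails and, when stretched by actin, exposes sites for vinculin. Paxillin and its relatives recruit signalling proteins, while zyxin and LPP bring in the Ena/VASP proteins, which promote actin filament growth. Testin binds zyxin and the Ena/VASP protein MENA and is known as a candidate tumour suppressor.

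The rRNA-depleted libraries were deposited as TPM, each gene's share of a library's transcripts after division by gene length. The depth recovered from TPM and gene length was 266157 to 1267171 reads per library, which is shallow for single genes. Wild-type libraries 1 to 3 had 407900, 266157 and 487272 reads. Knockout-labelled libraries 1 to 3 had 1038575, 1267171 and 512627 reads, each deeper than every wild-type library. The part of depth in the values of genes with few reads was not tested. The knockout-labelled libraries 1 and 2 differed by no more than sampling noise (chi-square of 1.02 per degree of freedom over 10117 genes, p = 0.0687, chi-square test over genes), against 1.16 to 1.54 for the other pairs of a label, so they were averaged and counted as 1 sample. METTL3 mRNA did not check the label: its wild-type mean was 29.4 ± 3.49 TPM (SD, n = 3) and its knockout-labelled mean 41.2 ± 2.21 TPM (SD, n = 2), and the limma adjusted p was 0.106. Of 12 microglial markers, 8 were listed at 0 in all 6 libraries, namely AIF1, CX3CR1, P2RY12, TMEM119, ITGAM, PTPRC, SPI1 and C1QA, and the 12 summed to 47.0 to 67.3 TPM in wild-type and 65.4 to 90.6 TPM in knockout-labelled libraries. Fibroblast and mesenchymal markers summed to 11660 to 14081 TPM in wild-type and 5624 to 5722 TPM in knockout-labelled libraries. The members of that list did not move together: COL1A1 (mean of 10669 and 819 TPM), COL1A2 (559 and 122 TPM) and PDGFRB (93.0 and 43.3 TPM) were lower, while VIM (477 and 2242 TPM), FN1 (835 and 2191 TPM) and THY1 (127 and 264 TPM) were higher. In the authors' deposited poly(A) table COL1A1 (-0.79) was also lower, and VIM (0.49) and THY1 (0.58) were also higher. There COL1A2 (0.30) was higher and FN1 (-0.34) lower, opposite to the rRNA-depleted libraries, and PDGFRB (-0.05) did not pass. Epithelial markers summed to 730 to 804 and 334 to 340 TPM. Most of this came from KRT18 (mean of 719 and 323 TPM), while EPCAM and CDH1 had no more than 1 read in any library. Contractile markers summed to 351 to 431 and 426 to 469 TPM, most of it from TAGLN (mean of 346 and 390 TPM). Neuronal ones summed to 3.198 to 4.67 and 11.6 to 13.8 TPM, most of the latter from SNAP25 (mean of 0.594 and 9.25 TPM). SNAP25 had 0, 0 and 1 reads in wild-type libraries 1 to 3. SYT1 was at 0.615 and 2.17 TPM, TUBB3 was lower (2.62 and 1.03 TPM), and RBFOX3 was listed at 0 in all 6 libraries. Astrocyte markers summed to 1.31 to 5.62 and 3.86 to 4.03 TPM, and endothelial ones to 0 to 1.59 and 0 to 0.968 TPM. The part of these shifts in the results below was not tested.

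TES mRNA was lower in the knockout-labelled libraries of both types. In wild-type libraries 1 to 3 TES had 104, 102 and 53.2 TPM, and it had 18.8, 12.8 and 12.1 TPM in knockout-labelled libraries 1 to 3. These values rest on 63, 42 and 38 reads and on 24, 20 and 8 reads. Wild-type library 3 was the lowest of its label, yet it remained above all 3 knockout-labelled libraries, and the labels did not overlap. The wild-type mean was 86.3 ± 28.8 TPM (SD, n = 3), the knockout-labelled mean 13.9 ± 2.63 TPM (SD, n = 2), a level 6.2-fold lower. On the log2(TPM + 1) scale TES fell by 2.50 (SE 0.35), with a limma adjusted p of 0.00624 over 14789 genes. The limma adjusted p was 0.0957 without knockout-labelled library 3, which leaves 1 knockout-labelled sample that is assumed to vary like the wild type, at a log2 change of -2.32. The authors' deposited table, which covers the poly(A) libraries, gave TES a log2 fold change of -2.21 (SE 0.13) at a mean normalized count of 119, the position 2 from the lowest among 5264 genes with a mean of at least 50. In the rRNA-depleted libraries 559 of 11863 genes tested with a mean of at least 5 TPM had a lower log2 change than TES. In bulk RNA, fewer cells that express a gene and less RNA per cell cannot be told apart.

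TES lies on chromosome 7, from 116210493 to 116258783 on the plus strand (ENSG00000135269, GRCh38 coordinates of GENCODE 29). RefSeq on GRCh38.p14 gives it 2 starts, whose upstream sequences differ in kind, and both are shown because TES had the largest log2 change of the 9 genes in size. An inner start of LPP is set beside them because it too holds a CArG box. An inner start of TGFB1I1 also holds one and is not shown. The stretches below run 5′ to 3′, are cut to leave out untranslated regions, and carry in capitals any CArG box, the element bound by serum response factor, and any GGAATG, the core bound by TEAD factors, on either strand.
TES, outer start, chr7:116210289-116210492, plus strand: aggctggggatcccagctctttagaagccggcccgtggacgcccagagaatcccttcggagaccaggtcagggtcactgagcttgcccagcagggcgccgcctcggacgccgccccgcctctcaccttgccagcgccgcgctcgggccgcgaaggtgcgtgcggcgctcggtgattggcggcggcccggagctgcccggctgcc
TES, inner start, chr7:116222703-116222803, plus strand: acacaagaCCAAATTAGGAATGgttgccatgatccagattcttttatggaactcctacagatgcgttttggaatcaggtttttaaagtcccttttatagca
LPP, an inner start, chr3:188212519-188212548, plus strand: gcctgcttctCCATATTTGGaaatgtttac
The outer TES window, 250 bases before the start, had a GC content of 73.6% and 28 CpG dinucleotides, against medians of 58% and 11 over 35116 such windows. The inner window, inside the gene, had 38.4% GC and 3 CpG. It held a CArG box and 2 matches to GGAATG, 1 of which overlaps the CArG box. All 9 genes matched the RefSeq table, with 19 windows among them. CArG boxes were found in 3 of the 19, at inner starts of TES, LPP and TGFB1I1, and in 1.16% of all windows. GGAATG was found in 5 of the 19 and in 11.9% of all, and GGGCGG, the SP1 motif, on either strand in 11 of the 19 and in 42.6% of all. The 19 windows are not independent, since 7 belong to LPP and some overlap. The same GGAATG match was counted in 2 overlapping windows of LPP, and the same GGGCGG matches in 2 of TGFB1I1. A match describes letters and not binding. Among the 3 genes with a CArG box, TES was called lower in the rRNA-depleted libraries and TGFB1I1 did not pass. LPP was called higher, though not with the trend with GC content removed. The part of the box in these values was not tested.

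**Figure D1:**
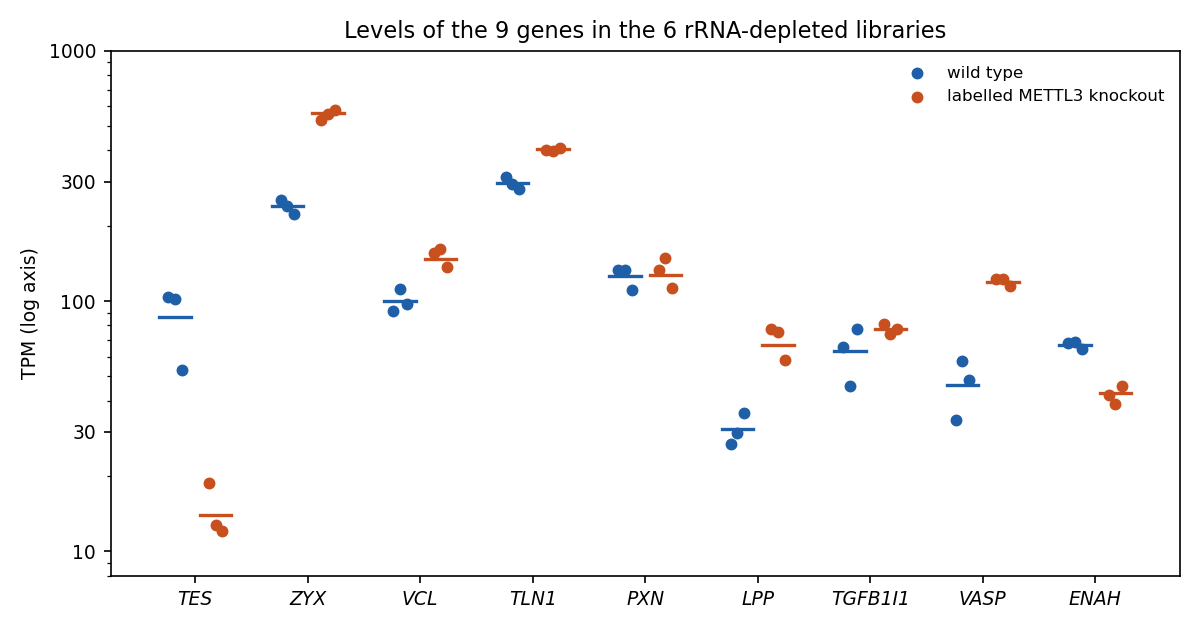
Level of each of the 9 genes in TPM (log axis) in the 6 rRNA-depleted libraries. Points are libraries 1 to 3 of each label from left to right, and horizontal lines are means over 3 wild-type and 2 knockout-labelled samples, libraries 1 and 2 of the latter averaged. TES lies between 53.2 and 104 TPM in the wild type and between 12.1 and 18.8 TPM in the knockout-labelled libraries.

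Zyxin and its close relative LPP went the other way from TES in the rRNA-depleted libraries. ZYX, a LIM protein that carries Ena/VASP proteins to adhesions and stress fibres, had 252, 241 and 224 TPM in the wild type and 529, 558 and 582 TPM in the knockout-labelled libraries. The lowest knockout-labelled value was above every wild-type value. The wild-type mean was 239 ± 14.5 TPM (SD, n = 3), the knockout-labelled mean 563 ± 27.4 TPM (SD, n = 2), and the difference on the log2 scale was 1.23 (SE 0.10) at a limma adjusted p of 0.0019. ZYX passed the threshold under every alternative tried. ZYX rose in the authors' deposited table too, by 0.73 on the log2 scale (SE 0.27, adjusted p 0.0387), with the largest standard error of the 9 genes there although its mean normalized count, 1099, was the highest. LPP had 26.9, 29.6 and 35.6 TPM in the wild type and 77.2, 75.2 and 57.9 TPM in the knockout-labelled libraries. The labels did not overlap, with knockout-labelled library 3 the nearest to the wild type. LPP rose by 1.10 on the log2 scale (SE 0.21; limma adjusted p of 0.0149). The difference was 0.09 (limma adjusted p of 0.764) with the trend with GC content removed from each library, and the limma adjusted p was 0.0657 without knockout-labelled library 3. LPP did not pass in the authors' deposited table (0.21, SE 0.13, adjusted p 0.266).

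The Ena/VASP proteins bind actin filament ends and zyxin. VASP rose and ENAH, which encodes MENA, fell. VASP had 33.4, 57.5 and 48.2 TPM in the wild type and 123, 122 and 115 TPM in the knockout-labelled libraries, with no overlap. The wild-type values came from 17, 20 and 29 reads. The wild-type mean was 46.4 ± 12.1 TPM (SD, n = 3), the knockout-labelled mean 119 ± 5.58 TPM (SD, n = 2), and the difference on the log2 scale was 1.37 (SE 0.25) at a limma adjusted p of 0.0126. ENAH had 67.9, 68.4 and 64.6 TPM in the wild type and 42.1, 38.6 and 45.8 TPM in the knockout-labelled libraries. Every knockout-labelled value of ENAH was below every wild-type value. ENAH fell by 0.63 on the log2 scale (SE 0.14; limma adjusted p of 0.0215), and its limma adjusted p was 0.0595 without wild-type library 1. Without knockout-labelled library 3, the limma adjusted p of VASP was 0.122 and that of ENAH 0.0492. Neither passed in the authors' deposited table, where VASP was at 0.13 (SE 0.24, adjusted p 0.77) and ENAH at -0.12 (SE 0.21, adjusted p 0.762) on the log2 scale, at mean normalized counts of 26.6 and 39.8.

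Talin and vinculin, the force-bearing links between integrin and actin, changed less. TLN1 had 314, 293 and 281 TPM in the wild type and 402, 399 and 409 TPM in the knockout-labelled libraries. VCL stood at 91.4, 112 and 97.1 TPM and at 155, 161 and 136 TPM. Neither gene overlapped between labels. The log2 change was 0.45 (SE 0.10; limma adjusted p of 0.0193) for TLN1 and 0.55 (SE 0.14; limma adjusted p of 0.0341) for VCL, close to the median of 0.41 over all genes tested. With median ratio scaling the changes were 0.10 (limma adjusted p of 0.508) and 0.20 (limma adjusted p of 0.347), so neither call held on that scale. VCL had a log2 change of -0.19 (limma adjusted p of 0.425) with the GC trend removed. It also missed the threshold without wild-type library 1 (limma adjusted p of 0.0829), wild-type library 3 (0.0788) or knockout-labelled library 3 (0.103), and with no filter on low values (0.0502). TLN1 missed it without knockout-labelled library 3 (0.0982). The authors' deposited table gave 0.29 (SE 0.11, adjusted p 0.055) for TLN1 and 0.05 (SE 0.09, adjusted p 0.764) for VCL.

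The paxillin family did not pass in the rRNA-depleted libraries. PXN encodes paxillin, a scaffold for focal adhesion kinase and its partners, and TGFB1I1 encodes its relative HIC-5. PXN had 133, 133 and 110 TPM in the wild type and 134, 149 and 113 TPM in the knockout-labelled libraries. The labels overlapped, with knockout-labelled library 3 within the range of the wild type. The log2 change of PXN was 0.01 (SE 0.16; limma adjusted p of 0.962). TGFB1I1 stood at 65.5, 46.0 and 77.6 TPM and at 80.6, 74.0 and 77.7 TPM. The wild-type libraries of TGFB1I1 varied more than the knockout-labelled ones, and library 3 of the wild type lay among them. On the log2 scale the difference was 0.33 (SE 0.24; limma adjusted p of 0.343), or -0.02 with median ratio scaling. TGFB1I1 was instead lower in the authors' deposited table, at -0.44 on the log2 scale (SE 0.10, adjusted p 0.000104). Of 5 contractile markers, TAGLN (-1.18) and CNN1 (-1.44) were also lower in the authors' deposited table, ACTA2 did not pass (0.91, adjusted p 0.252), and MYH11 and DES had no adjusted p. In the rRNA-depleted libraries none of the 4 that were tested passed, with TAGLN at 0.18 and CNN1 at 0.19. The part of these genes in the value of TGFB1I1 was not tested. PXN did not pass in the authors' deposited table (0.26, SE 0.12, adjusted p 0.121). Whether the change of TGFB1I1 differs between library types was not tested, since the poly(A) table holds no value for a single library.

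**Figure D2:**
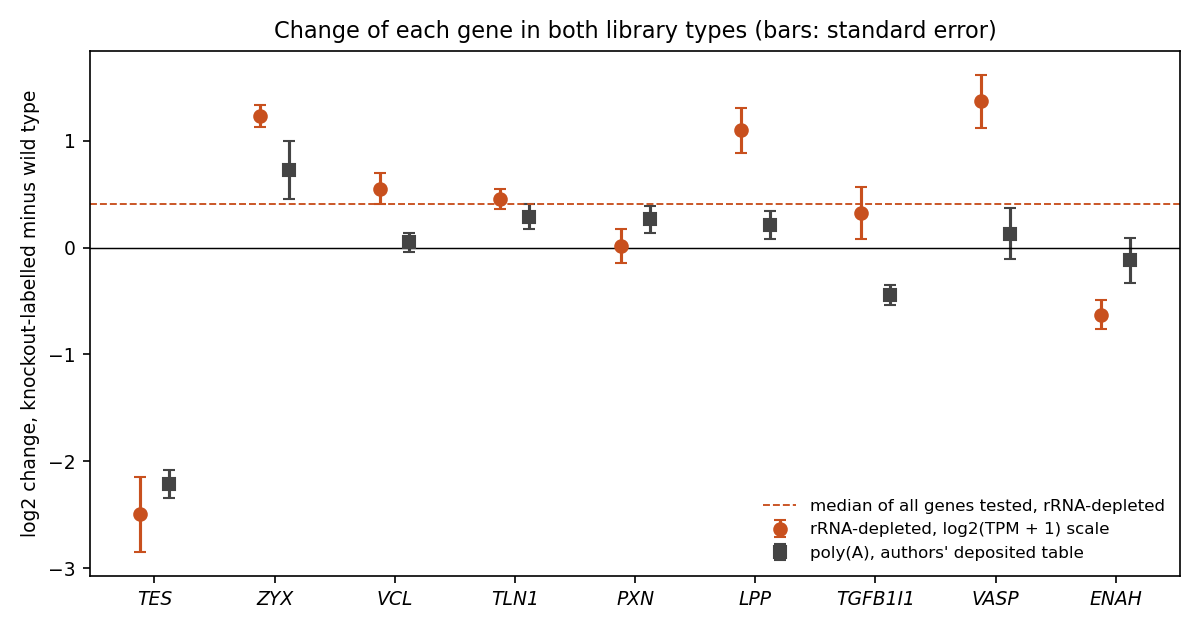
Log2 change of each gene, knockout-labelled minus wild type, in the rRNA-depleted libraries (circles, log2(TPM + 1) scale) and in the authors' deposited poly(A) table (squares). Bars are standard errors and the dashed line is the median of all genes tested in the rRNA-depleted libraries, 0.41. TES is the only one of the 9 genes below -1 in either library type, at -2.50 and -2.21.

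Counted together, 5 of the 9 genes were higher and 2 lower at a limma adjusted p under 0.05 in the rRNA-depleted libraries. Over all 14789 genes tested, 22.9% were called higher and 12.4% lower, 35.3% in all. The labels did not overlap for 7 of the 9 genes, and they did not overlap for 58.4% of all genes tested. The median log2 change of the 9 was 0.45, against 0.41 over all genes. Relative to that median, TES was at -2.91, ENAH at -1.04, PXN at -0.40, TGFB1I1 at -0.09, TLN1 at 0.04, VCL at 0.14, LPP at 0.69, ZYX at 0.82 and VASP at 0.96. Median ratio scaling brought the median of all genes to 0.11 and the share of calls that were higher from 64.8% to 48.6%. On that scale 3 of the 9 were higher and 2 lower. Without knockout-labelled library 3 there were 1 higher and 1 lower, and without wild-type library 1 there was 1 lower. Of the 9 in the authors' deposited table, 1 was higher (ZYX) and 2 were lower (TES and TGFB1I1) at an adjusted p under 0.05, where 9.55% of 14009 genes were higher and 10.3% lower, 19.9% in all. That count includes TES, which was chosen on this comparison, so nothing is read from it.

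Log2 changes in the rRNA-depleted libraries moved with the GC content of a gene's longest transcript, and the 9 genes spanned most of that range. Among genes sorted into 10 bins of GC content, the median log2 change went from 1.24 in the lowest to -0.41 in the highest. TES (43.7% GC) lay 3.29 below the median log2 change of its bin, a relative change of -3.29, and ENAH (40.7% GC) was at -1.69 from its bin. ZYX (64.9% GC) was at 1.65 and VASP (59.4% GC) at 1.45 above theirs. TLN1 (57.7% GC) was at 0.47, TGFB1I1 (59.1% GC) at 0.40, PXN (60.2% GC) at 0.09, LPP (39.6% GC) at 0.04 and VCL (45.1% GC) at -0.24. LPP, which was called higher, thus lay near the median of genes of like GC content, and VCL lay below it.

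A ratio of 2 genes within a library does not move with the scaling of that library. TES amounted to 10.6%, 10.4% and 5.67% of the summed TPM of the other 8 genes in wild-type libraries 1 to 3. In knockout-labelled libraries 1 to 3 it amounted to 1.22%, 0.812% and 0.785%. Every wild-type share was above every knockout-labelled share. The log2 ratio averaged -3.55 ± 0.51 (SD, n = 3) in wild-type and -6.82 ± 0.24 (SD, n = 2) in knockout-labelled samples, a difference of -3.27. A two-sided exact permutation test gave p = 0.2, the smallest that 3 against 2 samples allow. The summed TPM of the other 8 genes was 938 to 984 in the wild type and 1537 to 1577 in the knockout-labelled libraries.

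The other 8 genes, in the same annotation, are ZYX (chromosome 7, 143381080 to 143391111, plus strand), LPP (chromosome 3, 188153284 to 188890671, plus), VASP (chromosome 19, 45506579 to 45526983, plus) and ENAH (chromosome 1, 225486835 to 225653142, minus). VCL (chromosome 10, 73995193 to 74121363, plus), TLN1 (chromosome 9, 35696948 to 35732395, minus), PXN (chromosome 12, 120210439 to 120265771, minus) and TGFB1I1 (chromosome 16, 31471585 to 31477960, plus) complete them. The most abundant genes that overlap these on the opposite strand are AP3M1 at VCL (up to 60.1 TPM), CREB3 at TLN1 (up to 193 TPM) and PXN-AS1 at PXN (up to 27.7 TPM). Without a stated use of strand their reads may be mixed.

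By level per length, TLN1 (296 TPM) and ZYX (239 TPM) led the wild type. PXN (126), VCL (100.1), TES (86.3), ENAH (67.0), TGFB1I1 (63.0), VASP (46.4) and LPP (30.7 TPM) followed, and from PXN downward each gene overlapped the next over the 3 libraries. In the knockout-labelled libraries ZYX (563 TPM) stood above TLN1 (405 TPM) and TES (13.9 TPM) was last, below ENAH (43.1 TPM), with no overlap in either pair. VCL overlapped PXN there, and TGFB1I1 overlapped LPP.

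The longest transcripts of the 9 genes in GENCODE 29 were searched for GGACT, a common form of the sequence at which N6-methyladenosine is written. TES held 1 match in 2782 bases, or 0.359 per kb, and ZYX 1 in 2493 bases, or 0.401 per kb. Both lay under the lower quartile of 0.575 per kb over 11784 protein-coding genes tested, whose median was 0.922. TGFB1I1 (2.01 per kb) and PXN (1.47 per kb) lay above the upper quartile of 1.36, and VCL (0.625), LPP (0.875), ENAH (0.987), TLN1 (1.02) and VASP (1.3 per kb) lay between the quartiles. TES was lower and ZYX higher in both library types, and the part of these matches in either change was not tested. A match is not a measured methylated site.

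Another 55 genes of the adhesion plaque give the setting of the 9. In the rRNA-depleted libraries 50 of them were tested, and 15 were higher, 5 lower and 30 did not pass. Their median log2 change was 0.31, against 0.41 over all genes, and 40% were called, against 35.3% of all genes. With median ratio scaling 6 were higher and 6 lower, and without knockout-labelled library 3 there were 1 and 0. Without wild-type library 1 or 3 there were 3 lower. Of the 55, 51 had an adjusted p in the authors' deposited table, and 4 were higher and 10 lower, with a median log2 fold change of -0.08 against 0.02 over all genes. That is 27.5% called, against 19.9% of all genes there (9.55% higher and 10.3% lower).

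The genes most like TES in domain structure, with a PET domain and LIM domains or a part of these, did not share its direction in both library types. LMCD1, a LIM protein of that family, had 38.8, 31.7 and 36.7 TPM in the wild type and 14.3, 14.7 and 13.4 TPM in the knockout-labelled libraries. LMCD1 fell by 1.29 on the log2 scale (SE 0.21; limma adjusted p of 0.00884), with a limma adjusted p of 0.0605 without knockout-labelled library 3. LMCD1 was higher in the authors' deposited table (0.32, adjusted p 0.00361). PRICKLE1, PRICKLE2 and PRICKLE3, planar polarity proteins, did not pass in either library type, and PRICKLE4 was listed at 0 in all 6 libraries. In the rRNA-depleted libraries PRICKLE1 was at -0.01, PRICKLE2 at 1.48 (limma adjusted p of 0.0512) and PRICKLE3 at 1.21 (0.0697). The authors' deposited table gave -0.76, 0.64 and -2.26 (SE 0.98), the last at a mean normalized count of 2.85.

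The zyxin family was split. AJUBA, which regulates Hippo signalling from adhesions and junctions, had 380, 315 and 340 TPM in the wild type and 171, 187 and 180 TPM in the knockout-labelled libraries. AJUBA fell by 0.93 on the log2 scale (SE 0.11; limma adjusted p of 0.00441), and the limma adjusted p was 0.0564 without knockout-labelled library 3. LIMD1 (-0.82, limma adjusted p of 0.0379) and FBLIM1 (-0.92, 0.0153) also fell, and TRIP6 (0.89, 0.0059) rose. These genes, and WTIP, which did not pass (-1.50, limma adjusted p of 0.0803), were named here after their values were seen. AJUBA, LIMD1, FBLIM1 and TRIP6 did not pass in the authors' deposited table, and WTIP had no adjusted p there.

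Among kinases and docking proteins, NEDD9 and PEAK1 were the 2 of the 55 genes called in the same direction in both library types. NEDD9, a scaffold related to the focal adhesion protein BCAR1, had 4.79, 0.999 and 2.31 TPM in the wild type, from 7, 1 and 4 reads. In the knockout-labelled libraries it stood at 18.1, 20.1 and 24.3 TPM. NEDD9 rose by 2.74 on the log2 scale (SE 0.57; limma adjusted p of 0.0188), and by 0.61 in the authors' deposited table (adjusted p 6.9e-05). PEAK1, a pseudokinase of adhesion signalling, had 7.03, 8.13 and 13.1 TPM in the wild type and 28.97, 27.4 and 27.0 TPM in the knockout-labelled libraries. PEAK1 rose by 1.5 on the log2 scale (SE 0.35; limma adjusted p of 0.0262), but it did not pass with median ratio scaling (limma adjusted p of 0.0551), with the GC trend removed (0.154), without wild-type library 1 (0.0529) or without knockout-labelled library 3 (0.161). PEAK1 was higher in the authors' deposited table, by 0.89 (adjusted p 2.19e-08). Without knockout-labelled library 3 NEDD9 had a limma adjusted p of 0.147.

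Other extremes of the list came from 1 library type each. CSRP2, a LIM protein of the actin cytoskeleton, had a log2 change of 2.20 (limma adjusted p of 0.0371) from 1 to 4 reads per wild-type library. It did not pass with the GC trend removed (limma adjusted p of 0.206), median ratio scaling (0.0629), a pseudocount of 0.1 (0.0687) or no filter on low values (0.0695), nor without wild-type library 2 (0.0552) or without knockout-labelled library 3 (0.184). PTK2B, a kinase related to focal adhesion kinase, and LIMS2, a partner of integrin-linked kinase, had the lowest log2 fold changes called in the authors' deposited table. They were at -2.31 and -0.96 there, at mean normalized counts of 7.92 and 51.7. In the rRNA-depleted libraries PTK2B and LIMS2 did not pass, at -1.01 and -0.75, although both did under voom on recovered reads (limma adjusted p of 0.00361 and 0.0156). PTK2B had only 7, 2 and 3 reads in wild-type libraries 1 to 3 and 1, 1 and 3 reads in the knockout-labelled ones. LMCD1, RSU1 and ACTN1 were called in both library types with opposite signs, the latter pair named after their values were seen. RSU1, a partner of the PINCH proteins, was at 1.39 and at -0.41 in the authors' deposited table. ACTN1, an actin crosslinker, was at 0.52 and at -0.34 in the authors' deposited table. Relative to the median of all genes tested in the rRNA-depleted libraries, LMCD1 was at -1.70, RSU1 at 0.98 and ACTN1 at only 0.11. The median log2 change was 0.80 in the GC bin of RSU1 (43.5% GC) and 0.42 in that of ACTN1 (49.9% GC).

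**Figure D3:**
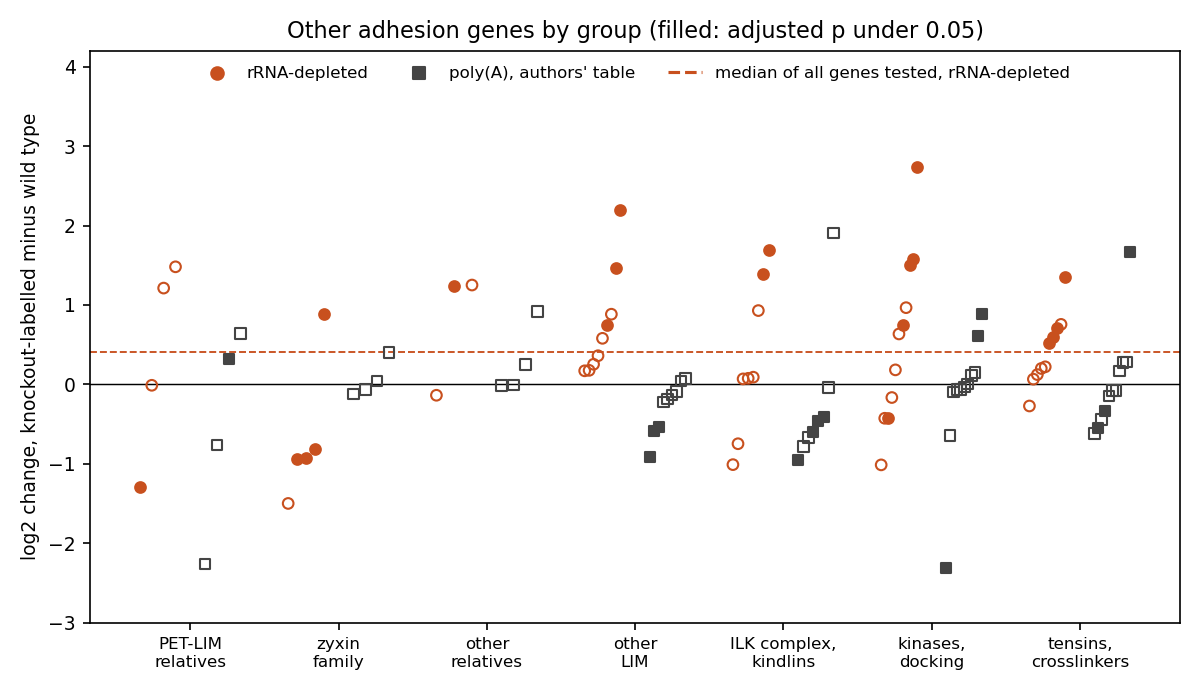
Log2 change of the other adhesion genes by group, in the rRNA-depleted libraries (circles) and in the authors' deposited poly(A) table (squares), with filled symbols for an adjusted p under 0.05. The dashed line is the median of all genes tested in the rRNA-depleted libraries, 0.41. Filled circles lie on both sides of 0, 15 above and 5 below, and filled squares number 4 above and 10 below.

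The 4 nearest genes tested on each side of TES were examined for a shared direction along the chromosome. CAV2 and CAV1, which encode the caveolins of membrane pits, start 76.9 and 314 kb after TES. CAV1 had 79.8, 68.4 and 54.3 TPM in the wild type and 461, 451 and 416 TPM in the knockout-labelled libraries, far apart and opposite to TES. CAV1 rose by 2.69 on the log2 scale (SE 0.19; limma adjusted p of 0.00129), while the authors' deposited table gave 0.01 (SE 0.05, adjusted p 0.947). CAV2 stood at 22.5, 14.9 and 30.3 TPM and at 21.3, 19.4 and 23.3 TPM, which overlap, and differed by 0.00 on the log2 scale (SE 0.34; limma adjusted p of 0.993). CAV2 was lower in the authors' deposited table, at -0.97 (SE 0.12, adjusted p 8.41e-15). On the other side the nearest gene tested was MDFIC, whose start lies at -1288 kb from that of TES and which did not pass (0.66, limma adjusted p of 0.25). Further off, GPR85 was listed at 0 in all 3 wild-type libraries, with 3.17, 2.59 and 5.24 TPM in the knockout-labelled ones, and SMIM30 stood at 3.74, 0 and 3.16 TPM and at 37.1, 40.4 and 30.7 TPM. Both were called higher in the rRNA-depleted libraries (limma adjusted p of 0.0119 and 0.0199), and both missed the threshold with the GC trend removed (0.146 and 0.0528). SMIM30 also missed it with a pseudocount of 0.1 (limma adjusted p of 0.101), and its log2 change was 3.88 without knockout-labelled library 3. Wild-type libraries 1 to 3 held 0, 0 and 0 reads of GPR85 and 1, 0 and 1 reads of SMIM30, at the floor. Knockout-labelled libraries 1 to 3 held 7, 7 and 6 reads of GPR85 and 21, 28 and 9 reads of SMIM30. GPR85 rose in the authors' deposited table too (1.23, adjusted p 0.00142). SMIM30 did not pass there (-0.30, adjusted p 0.0988), and BMT2 did not pass in either. The noncoding gene AC002066.1 (116238260 to 116499465, minus strand) overlaps the 3′ part of TES and most of CAV2 on the opposite strand. It stood at no more than 17.1 TPM in any library and did not pass (limma adjusted p of 0.455). AC073130.1, a noncoding gene between TES and CAV2, did not pass either (limma adjusted p of 0.0757), but its limma adjusted p was 0.0336 with the 6 libraries as separate samples and 0.0242 without wild-type library 1. Whether the counting used strand is not given in the sources used here, so reads of TES or CAV2 and of genes antisense to them may be mixed.

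**Figure D4:**
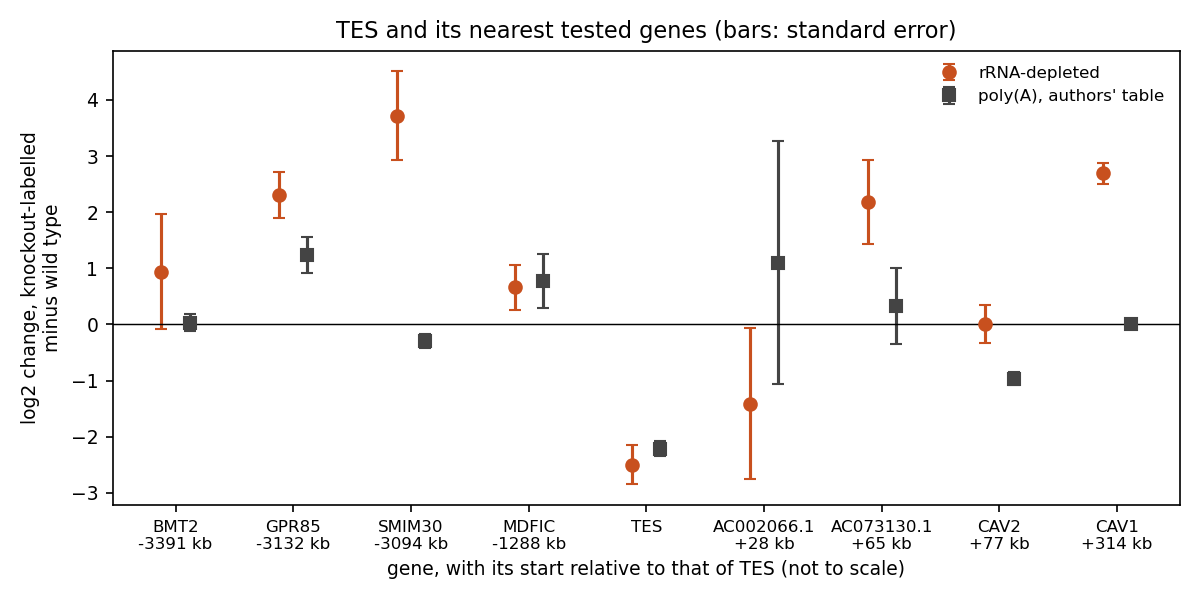
Log2 change of TES and of the 4 nearest tested genes on each side, in order along the chromosome and not to scale, in the rRNA-depleted libraries (circles) and in the authors' deposited poly(A) table (squares), with standard errors as bars. TES is at -2.50 and -2.21, and CAV1, which starts 314 kb after it, is at 2.69 and 0.01.

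The genes whose profile over the 6 rRNA-depleted libraries was most like that of TES were sought among 12114 genes with a symbol and a mean of at least 5 TPM, whether or not they passed the filter for the test, by the Euclidean distance between log2(TPM + 1) profiles centred on each gene's mean. The nearest were RN7SL408P (distance 0.549), RN7SL709P (0.658), KREMEN2 (0.703), RAB24 (0.713) and FOS (0.713). The first 2 are annotated as copies of the abundant 7SL RNA, so their levels are uncertain. FOS, an immediate early transcription factor, had 41.6, 38.4 and 35.1 TPM in the wild type and 7.25, 6.77 and 5.98 TPM in the knockout-labelled libraries. FOS was also lower in the authors' deposited table, at -1.28 (SE 0.24, adjusted p 2.71e-06), while RAB24 did not pass (-0.21, adjusted p 0.771) and KREMEN2 had no adjusted p. The 6 libraries fall under 2 labels, and any gene lower by a like amount comes near TES by this measure.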

How the data were processed

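RNA of HMC3 cells was sequenced as 16 libraries, which fall into groups by their titles (genotype, library type). Reads were trimmed with Trimmomatic and aligned with STAR to hg38, per the submitters' processing notes. The counting tool, annotation and strand setting are not given in the sources used here. The authors' deposited poly(A) table is 1 comparison in DESeq2's layout. Its columns are the mean normalized count over libraries (a signal), the log2 fold change and standard error, the Wald statistic (a score) and raw and adjusted p-value, per the file headers. It does not name the numerator. A positive value was read as higher in the knockout, since 91.5% of 176 genes other than the 9, called in both library types with log2 changes of 1 or more in size, then agreed in sign. Should the wild type be the numerator, each poly(A) direction turns round. The other deposited table holds TPM, 1 column per rRNA-depleted library, matched by genotype and replicate number.

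Gene lengths came from GENCODE 29, which matched 93.8% of the gene identifiers. Converted back to reads, 90.9% of TPM values above 0 were whole (tolerance 0.02 reads). PXN, ENAH and TRIP6 did not, so no reads are given for them. limma 3.58.1 in R 4.3.3 (lmFit, eBayes with trend) was fitted to log2(TPM + 1) for genes that reached 1 TPM in 3 or more libraries. Genotype was the only term, and p-values were adjusted over all genes (Benjamini-Hochberg, threshold 0.05). This scale understates the change of low genes. The TES ratio was tested by exact two-sided permutation (scipy 1.17.1). The alternatives were other pseudocounts, filters, scalings, a GC correction, voom, separate libraries, a replicate block and leaving out each library.

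The 9 genes, the list of 55 and the marker lists were chosen with earlier results of these data known. Named genes were the 9, their list's extremes and genes called alike in both library types, the 4 nearest tested genes on each side of TES, METTL3 and the 5 profiles most like TES. LIMD1, FBLIM1, TRIP6, WTIP, RSU1, ACTN1, the PRICKLE genes and the marker genes fall outside this rule. One gene the rule names is not reported here. The analysis also used Python 3.11.15, numpy 2.4.6, pandas 2.3.3 and matplotlib 3.10.9.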

Additional observations from a re-analysis of the deposited data

How the results depend on the processing

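TES kept its direction under all 16 alternatives and its call under 15 of them, the exception being the fit without knockout-labelled library 3. Its log2 change was -2.32 to -2.81 when 1 library was left out, -2.84 with median ratio scaling and -3.31 with the GC trend removed, and its log2 ratio to the other 8 genes was -3.10 to -3.57. Leaving out 1 library gave 1663 to 5185 genes past the threshold, 1 to 5 of the 9 genes higher and 1 to 2 lower, and 1 to 15 other adhesion genes higher and 0 to 5 lower. The lowest of these came without knockout-labelled library 3, and the count of lower genes among the 9 was also 1 without wild-type library 1. At an adjusted p under 0.01 there were 2242 genes, 1 of the 9 higher and 1 lower, 5 other adhesion genes higher and 2 lower, and 0 of the 9 higher in the authors' deposited table. Median ratio scaling left 3 of the 9 higher and 6 other adhesion genes higher, and removing the GC trend left 3 and 7, with VCL at -0.19. Other adhesion genes called lower numbered 3 without a filter and 12 under voom on recovered reads. The causes were not tested. Same-numbered libraries did not deviate together (correlations of 0.02, -0.02 and 0.01 over genes), so the numbers were not taken as pairs. With the replicate block and the 6 libraries as separate samples, 6037 genes passed, against 6880 without the block, and TES had a log2 change of -2.45 and a limma adjusted p of 0.0027. Depths of 266157 to 512627 reads in 4 of the 6 libraries limit genes of few reads.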
